A study of Homo sapiens with 10 samples.

Results

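The enzymes that hydroxylate and crosslink collagen were followed in chromate-transformed human bronchial epithelial cells. They comprised 10 genes, namely the lysyl oxidases LOX, LOXL1, LOXL2, LOXL3 and LOXL4, the lysyl hydroxylases PLOD1, PLOD2 and PLOD3, and the prolyl 4-hydroxylase subunits P4HA1 and P4HA2. They were chosen by gene symbol out of 18378 genes that the annotation of the Affymetrix Human Gene ST array tied to a transcript cluster (a set of probes that measures 1 gene), and each had 1 cluster. RNA of 10 cell cultures was hybridised, with 1 array per culture. Cr_small and Cr_large were 3 lines each, grown from small and from large soft agar colonies of BEAS-2B cells that had received 0.5 µM potassium chromate for 30 days. The control group was 3 lines from colonies that untreated BEAS-2B cells formed in soft agar, and the parental BEAS-2B cells, which had not been through agar, gave 1 array. BEAS-2B is an immortalized line of human bronchial epithelium. The labels give chromate treatment for all 10 arrays, so the groups were taken from the array titles, and the untreated state of the control and parental cells from the study's methods. Each line descended from a single colony, so a p-value here measures the spread between clonal lines of 1 experiment.

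Collagen chains are modified in the endoplasmic reticulum before they fold into a triple helix. Prolyl 4-hydroxylase, made of a catalytic alpha subunit (P4HA) and the beta subunit P4HB, hydroxylates prolines and so makes the helix stable at body temperature. The lysyl hydroxylases (PLOD) hydroxylate lysines that later carry sugars and crosslinks. After secretion, the copper-dependent lysyl oxidases oxidise lysines of collagen and elastin to aldehydes, which then join neighbouring molecules. Both hydroxylase families need iron, oxygen, ascorbate and 2-oxoglutarate, and several of these genes are known to be induced by hypoxia in many cell types.

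Values are log2 of the deposited intensities, on which 1 unit is a 2-fold difference. Over all 28869 clusters the median was 5.86 and the 10th percentile 4.60, and array medians lay between 5.82 and 5.90. Averaged over the 10 arrays, 8 members had a log2 intensity over 7, the level used here to call a cluster bright. The other 2 members, LOXL3 and LOXL4, were near the median of all clusters, at the 46.6th and 43.9th percentile. PLOD2 stood at the 99.3rd percentile, LOXL2 at the 98.2nd and LOX at the 97.4th. These levels depend on each gene's probes and give no ranking of transcript amounts between genes. The control line 2 was the lowest of the 3 control lines for all 8 bright members, and it was the lowest for 51.5% of the 9575 bright clusters. The markers of the labelled cell type were mixed. KRT18 averaged 12.16 ± 0.14 in Cr lines (SD, n = 6) and 11.34 ± 0.14 in control lines (SD, n = 3), whereas CDH1, the epithelial cadherin, was near background at 4.93 ± 0.07 in Cr lines and 4.94 ± 0.07 in control lines (SD, n = 6 and 3). The KRT18 values are those of the brighter of its 2 clusters. VIM, a mesenchymal intermediate filament gene, was bright in all groups. It was 1 of 4 bright genes among 9 mesenchymal markers, and PDGFRA, DCN and LUM were near background. Of 4 endothelial markers 0 were bright, and PECAM1 was near background. Of 3 leukocyte markers measured, PTPRC was near background, but CD68 was bright, at 7.93 in Cr lines and 7.43 in control lines.

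Across both groups of chromate-transformed lines, 3 of the 10 enzymes were lower than in control lines and 0 were higher. LOXL1 was 2.01-fold lower, LOXL2 1.43-fold lower and P4HA2 1.41-fold lower, while LOX, LOXL3, LOXL4, the 3 PLOD genes and P4HA1 did not pass the test (limma, Benjamini-Hochberg adjusted p under 0.05 over all clusters). At an unadjusted p under 0.05 the same 3 members were lower and 0 higher, both by limma, where 11.1% of all clusters were lower and 13.3% higher, and by the methods' t-test, where 10.5% were lower and 12.4% higher. Of all clusters, 5.72% were lower and 5.33% were higher in this comparison, and of the bright clusters, 11.6% were lower and 10.8% were higher. The median log2 difference of the members was 0.05, against 0.01 over all clusters. In each of the same 3 genes, all 6 Cr lines lay below all 3 control lines. With quantile normalization repeated, the Cr lines stood wholly apart from the control lines in 2 enzymes. All Cr lines lay below the controls for 7.84% of all clusters and above them for 8.85%.

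**Figure D1:**
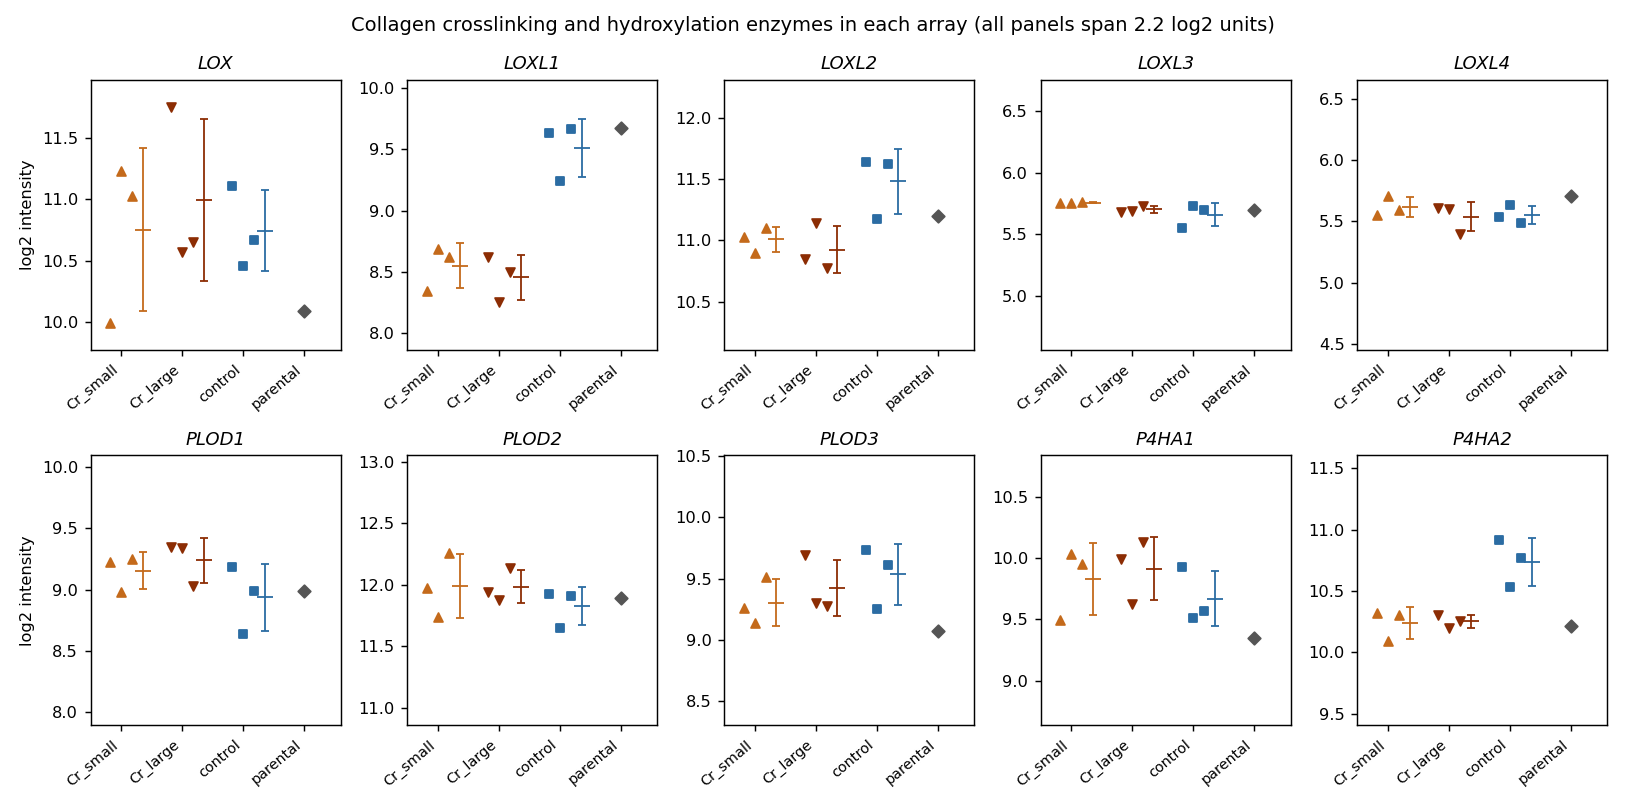
Log2 intensity (vertical axes, each spanning the same number of log2 units) of the 10 enzyme genes in every array, with bars for the mean ± SD of the Cr_small, Cr_large and control lines (n = 3 each) and a diamond for the single parental array. LOXL1 and P4HA2 lie lower in the 6 Cr lines than in the 3 control lines, LOXL2 does so by a narrow margin, and LOX is the most scattered.

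LOXL1 encodes a lysyl oxidase known for crosslinking elastin in elastic fibres. It lies at chr15:73926462-73952136 (GRCh38.p14). Its log2 intensities were 8.34, 8.69 and 8.62 in Cr_small lines and 8.62, 8.26 and 8.50 in Cr_large lines, against 9.63, 9.24 and 9.67 in control lines and 9.68 in parental cells. The Cr lines formed 1 band well below a second band of control and parental cells, with a gap of 0.55 between the highest Cr line and the lowest control line. The mean was 8.51 ± 0.17 in Cr lines (SD, n = 6) and 9.51 ± 0.24 in control lines (SD, n = 3). The difference was -1.01 on the log2 scale (SE 0.13, 95% interval -1.30 to -0.71, limma adjusted p = 0.00259). In these bulk cultures, fewer cells with the transcript and less transcript per cell cannot be told apart. Some keratins moved the other way with the same groups. KRT7, KRT8 and KRT18 were higher in Cr lines, 3 of 7 epithelial markers. KRT19 ran from 5.79 to 10.07 over the Cr lines and from 6.07 to 6.27 over the control lines (limma adjusted p = 0.235). EPCAM, CDH1 and CDH3 did not pass either. The summed intensity of that list comes mostly from KRT7, KRT8 and KRT18. It was 11240 to 14528 in Cr_small lines and 14038 to 15547 in Cr_large lines, against 7583 to 9493 in control lines. Of the 9 mesenchymal markers, 0 passed the limma test, adjusted or not, and their summed intensities overlapped, at 7285 to 9272 in Cr_small lines, 7104 to 9964 in Cr_large lines and 6107 to 11236 in control lines. The part of either marker list in the enzyme results was not tested.

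The promoter of LOXL1 is shown because this gene carried the largest difference among the 10. The window holds 250 bases before and 50 bases after the RefSeq start in GRCh38.p14, chr15:73926212-73926511, plus strand, 5′ to 3′. Neither core of the hypoxia response element, ACGTG or GCGTG on either strand, occurs in it, nor does the AP-1 element TGANTCA or the GC box GGGCGG, so no base is in capitals. Of 35116 RefSeq promoter windows of this length, 21.4% hold ACGTG, 36.5% GCGTG, 7.71% TGANTCA and 45.0% GGGCGG on at least 1 strand. The absence of these letters concerns this window alone. The base composition was 67.3% G and C.
LOXL1: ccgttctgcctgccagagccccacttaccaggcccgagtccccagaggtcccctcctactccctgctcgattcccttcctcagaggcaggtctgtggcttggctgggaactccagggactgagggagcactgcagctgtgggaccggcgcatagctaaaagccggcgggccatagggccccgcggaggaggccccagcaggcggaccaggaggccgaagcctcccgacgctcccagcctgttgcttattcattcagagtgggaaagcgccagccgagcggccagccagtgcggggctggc

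The neighbours of LOXL1 on chromosome 15 were lower as well. Among the 40 nearest bright genes, 20 on each side from PIAS1 to IDH3A, 26 were lower and 0 were higher in Cr lines, with a median log2 difference of -0.45 (quartiles -0.61 and -0.27). LOXL1 itself, at -1.01, lay below 39 of these 40 genes. The part of the surrounding region in the LOXL1 value was not tested.

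LOXL2, which is known for crosslinking the type IV collagen of basement membranes, showed a smaller difference. Its log2 intensities were 11.03, 10.90 and 11.10 in Cr_small lines and 10.85, 11.14 and 10.78 in Cr_large lines, against 11.64, 11.17 and 11.63 in control lines and 11.19 in parental cells. The Cr lines were all below the controls, but control line 2 came within 0.03 of the highest Cr line and was next to the parental value, whereas the other control lines stood clearly higher. The difference was -0.51 (SE 0.13, 95% interval -0.80 to -0.22, limma adjusted p = 0.0365). This call was lost under 10 of 20 alternative settings, with adjusted p from 0.0557 without Cr_small replicate 3 to 0.142 without control replicate 3. Among 40 bright neighbours of LOXL2, 13 were lower and 1 was higher, and 10 had a more negative difference than LOXL2, BMP1 among them at -1.27.

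LOX, the founding member of the family and a crosslinker of fibrillar collagens and elastin, was the most variable enzyme. Its log2 intensities were 9.99, 11.23 and 11.03 in Cr_small lines and 11.75, 10.57 and 10.65 in Cr_large lines, against 11.10, 10.46 and 10.67 in control lines and 10.09 in parental cells. The lowest Cr line, Cr_small 1, was near the parental cells and the highest, Cr_large 1, was above every control line, so the groups overlapped fully. The range over the 6 Cr lines was 1.76, and their SD of 0.61 exceeded that of 99.2% of bright clusters. The difference from control lines was 0.13 (SE 0.35, 95% interval -0.69 to 0.94, limma adjusted p = 0.888). The interval reached past 1.5-fold in both directions. The 3 RefSeq promoter windows of LOX, of which the second and the third overlap, held 5 distinct ACGTG cores, 4 of them in the first window, and 1 GCGTG core.

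LOXL3 and LOXL4, paralogues with less studied roles, were dim. LOXL3 ranged from 5.68 to 5.76 over the Cr lines and from 5.55 to 5.73 over the control lines, and LOXL4 from 5.40 to 5.71 and from 5.49 to 5.63 in the same order of groups. The differences were 0.07 for LOXL3 (adjusted p = 0.391) and 0.03 for LOXL4 (adjusted p = 0.868) by limma. At these intensities the constant that the processing adds makes fold changes smaller.

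The lysyl hydroxylases did not separate the groups. PLOD1, the enzyme of lysines in the triple helix, had 9.23, 8.98 and 9.25 in Cr_small lines and 9.35, 9.34 and 9.03 in Cr_large lines, against 9.18, 8.64 and 8.99 in control lines and 8.98 in parental cells. Of the 6 Cr lines, 4 were above the highest control line and 0 were below the lowest, with a difference of 0.26 (95% interval -0.05 to 0.56, limma adjusted p = 0.284). PLOD2, which hydroxylates the telopeptide lysines that give the most stable collagen crosslinks, had 11.97, 11.74 and 12.26 in Cr_small lines and 11.94, 11.87 and 12.14 in Cr_large lines, against 11.93, 11.65 and 11.91 in control lines and 11.89 in parental cells. Here too 4 Cr lines were above every control line, and the difference was 0.16 (95% interval -0.12 to 0.44, limma adjusted p = 0.500). PLOD3, which also transfers sugars to hydroxylysine, had 9.26, 9.14 and 9.51 in Cr_small lines and 9.69, 9.30 and 9.28 in Cr_large lines, against 9.74, 9.25 and 9.61 in control lines and 9.07 in parental cells. Its difference was -0.17 (95% interval -0.50 to 0.16, limma adjusted p = 0.539), with 0 Cr lines above the highest control line and 1 below the lowest. For all 3 PLOD genes the interval lies within a 1.5-fold change on either side.

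Of the prolyl 4-hydroxylase subunits, P4HA2 was lower in Cr lines and P4HA1 did not pass the test. P4HA2, located at chr5:132190147-132227853, had log2 intensities of 10.32, 10.09 and 10.30 in Cr_small lines and 10.30, 10.20 and 10.25 in Cr_large lines, against 10.92, 10.53 and 10.77 in control lines and 10.21 in parental cells. The Cr lines were close together, at the level of the parental cells, and the control lines stood above both. The mean was 10.25 ± 0.09 in Cr lines (SD, n = 6) and 10.74 ± 0.19 in control lines (SD, n = 3), a difference of -0.49 (SE 0.09, 95% interval -0.70 to -0.29, limma adjusted p = 0.0117). Among its 40 bright neighbours on chromosome 5, 1 was lower and 4 were higher, with a median difference of 0.05, and P4HA2 lay below 38 of them. The call held in 19 of 20 alternative settings and was lost without control replicate 3 (adjusted p = 0.0553).

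P4HA1, the more widely expressed alpha subunit, had log2 intensities of 9.49, 10.04 and 9.95 in Cr_small lines and 9.99, 9.63 and 10.13 in Cr_large lines, against 9.93, 9.51 and 9.57 in control lines and 9.35 in parental cells. Of the Cr lines, 4 were above every control line and 1 was below every control line, so the groups overlapped. The difference was 0.20 (95% interval -0.17 to 0.58, limma adjusted p = 0.526). The bright neighbours of P4HA1 on chromosome 10 had a median difference of -0.20, and 38 of 40 lay below P4HA1.

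The promoter windows of both alpha subunits are shown since the genes encode alternative subunits of the same enzyme. They span 250 bases before to 50 after the RefSeq start in GRCh38.p14, on the minus strand, at chr5:132227042-132227341 for P4HA2 and chr10:73096817-73097116 for P4HA1. The P4HA1 window belongs to the outer end of the gene, and that of P4HA2 to a transcript start 762 bases inside its gene, so they do not stand at the same place in their genes. Capitals mark a hypoxia response element core, ACGTG on either strand, here read as its reverse complement. The P4HA1 window has 1 such core, at position -86 from the start, and the P4HA2 window has none, nor does either hold the other core, the AP-1 element or the GC box.
P4HA2: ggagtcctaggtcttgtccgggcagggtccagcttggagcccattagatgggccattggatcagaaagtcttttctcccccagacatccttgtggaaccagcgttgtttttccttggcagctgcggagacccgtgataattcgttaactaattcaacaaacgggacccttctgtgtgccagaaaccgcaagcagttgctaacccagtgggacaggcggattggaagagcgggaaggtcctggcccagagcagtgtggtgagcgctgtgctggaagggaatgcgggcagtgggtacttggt
P4HA1: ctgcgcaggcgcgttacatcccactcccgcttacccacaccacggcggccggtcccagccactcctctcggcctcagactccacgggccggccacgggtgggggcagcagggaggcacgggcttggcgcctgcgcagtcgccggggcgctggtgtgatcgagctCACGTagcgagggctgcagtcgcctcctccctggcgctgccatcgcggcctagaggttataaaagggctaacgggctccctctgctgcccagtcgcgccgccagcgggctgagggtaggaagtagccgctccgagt
For the other enzymes with a window, PLOD2 held 2 ACGTG cores and 1 GCGTG core, PLOD1 held 2 GCGTG cores, and LOXL4 and PLOD3 held neither. The 2 windows of LOXL3 held 0 ACGTG cores, and 1 of them held a GCGTG core. A match is a run of letters and was not tested as a binding site.

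Within an array, P4HA2 exceeded P4HA1 by less in the Cr lines. The log2 difference of P4HA2 minus P4HA1 was 0.06 to 0.83 in Cr lines (mean 0.37 ± 0.29, SD, n = 6), against 0.99 to 1.20 in control lines (mean 1.07 ± 0.11, SD, n = 3) and 0.86 in parental cells. Cr_small 1, at 0.83, was close to the parental cells and the other Cr lines were lower. LOXL1 minus LOXL2 was -2.88 to -2.21 in Cr lines, against -2.01 to -1.93 in control lines and -1.52 in parental cells. These are 2 of 5 pairs computed, chosen after their values were seen, and have no test. LOXL1 minus LOX did not overlap between Cr and control lines either, whereas LOXL2 minus LOX did, at -0.90 to 1.04 in Cr lines and 0.54 to 0.96 in control lines, as did PLOD3 minus PLOD2, at -2.85 to -2.25 in Cr lines and -2.40 to -2.19 in control lines. Since each gene has its own probes, only the shift between groups can be read from them.

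**Figure D2:**
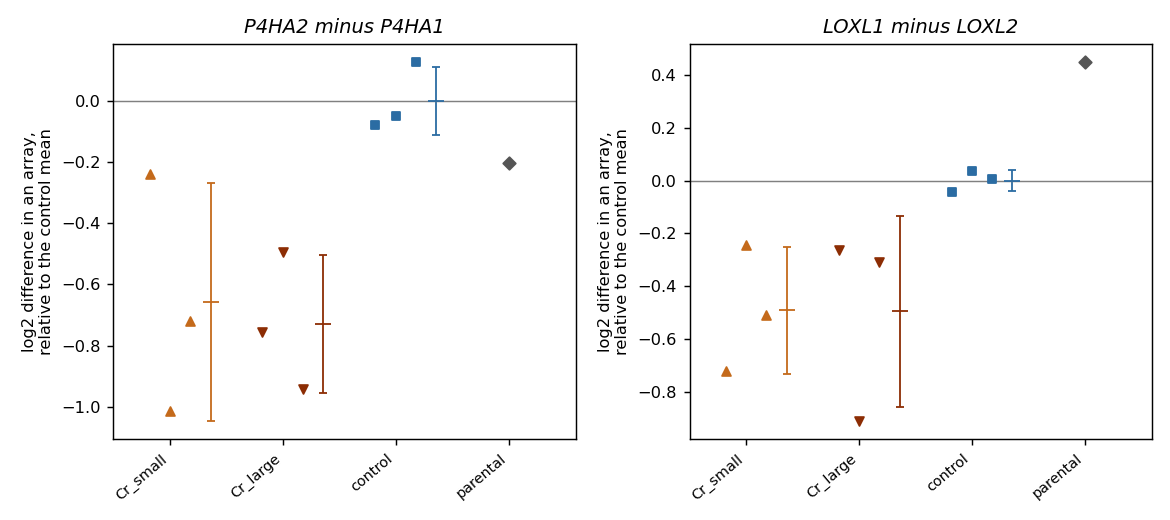
Log2 difference between 2 enzymes within each array (vertical axis, relative to the mean of the 3 control lines), with bars for the mean ± SD (n = 3 lines a group) and a diamond for the parental array. All 6 Cr lines lie below all 3 control lines in both panels. The parental array lies between them for P4HA2 minus P4HA1 and above them for LOXL1 minus LOXL2.

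Each group of transformed lines gave similar values against the same 3 control lines, which both comparisons share. In Cr_small lines, 2 members were lower and 0 higher, where 4.47% of all clusters were lower and 3.79% higher. In Cr_large lines, 2 members were also lower and 0 higher, where 4.11% of all clusters were lower and 3.33% higher. LOXL1 differed by -0.96 in Cr_small (limma adjusted p = 0.00810) and by -1.05 in Cr_large (adjusted p = 0.00587). P4HA2 differed by -0.50 in Cr_small (limma adjusted p = 0.0247) and by -0.48 in Cr_large (adjusted p = 0.0295). LOXL2 passed in neither group alone, at -0.47 in Cr_small (limma adjusted p = 0.0955) and -0.56 in Cr_large (adjusted p = 0.0591). The other 7 members did not pass in either.

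**Figure D3:**
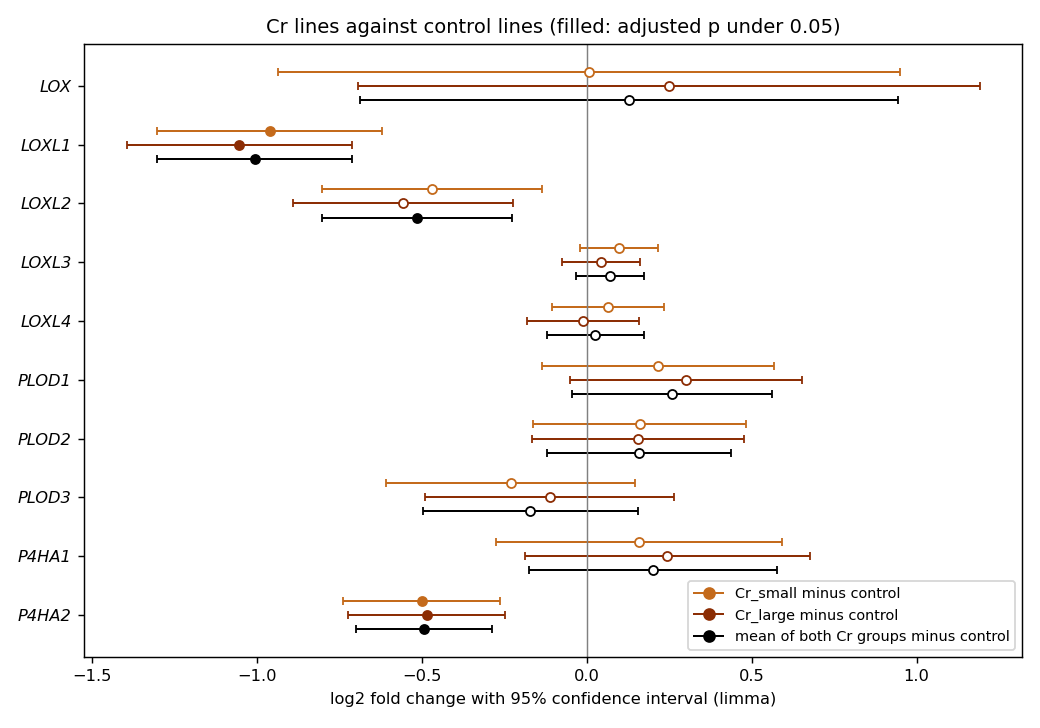
Log2 fold change against control lines with its 95% confidence interval (horizontal axis, limma) for the 10 enzymes, in Cr_small lines, Cr_large lines and the mean of both groups. Filled points passed the adjusted threshold over all clusters. LOXL1 and P4HA2 are filled in all 3 comparisons, LOXL2 only for the mean of both groups, and LOX has the widest intervals.

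Large-colony and small-colony lines were then compared directly. With limma, 0 members and 0.0% of all clusters passed the adjusted threshold, and at an unadjusted p under 0.05 there were 0 members and 1266 clusters. The methods' t-test without adjustment called 1 member, the dim LOXL3, at -0.05. The share of all clusters that this test calls here was not computed, so the call is not read as a difference. The differences were -0.09 for LOXL1 (95% interval -0.43 to 0.25), -0.09 for LOXL2 (-0.42 to 0.24) and 0.01 for P4HA2 (-0.22 to 0.25). For LOX the difference was 0.24 with an interval of -0.70 to 1.18, the widest among the members. These intervals bound a colony-size effect to within 1.5-fold on either side for LOXL1, LOXL2 and P4HA2, but not for LOX.

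The parental cells gave a single array, so a 1.5-fold difference is a description without a test. In control lines, 1 member was past 1.5-fold, LOX, which was 1.57-fold higher than in parental cells. Of all clusters, 2.28% were higher and 2.29% lower by that much. In Cr lines, LOX was 1.72-fold higher and LOXL1 2.25-fold lower than in parental cells, where 2.93% of all clusters were higher and 4.01% lower by 1.5-fold or more. The order of the groups differed between the enzymes that were lower in Cr lines. For LOXL1 the order was Cr_large, Cr_small, control and parental from low to high, and neither Cr_large and Cr_small nor control and parental differed beyond the spread of the lines. For P4HA2 the parental cells, Cr_small and Cr_large lay together, within the range of the Cr lines, and only the control lines stood apart, 1.44-fold above the parental cells. LOXL2 in parental cells, at 11.19, was above every Cr line and within the range of the control lines. These comparisons share the parental array.

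**Figure D4:**
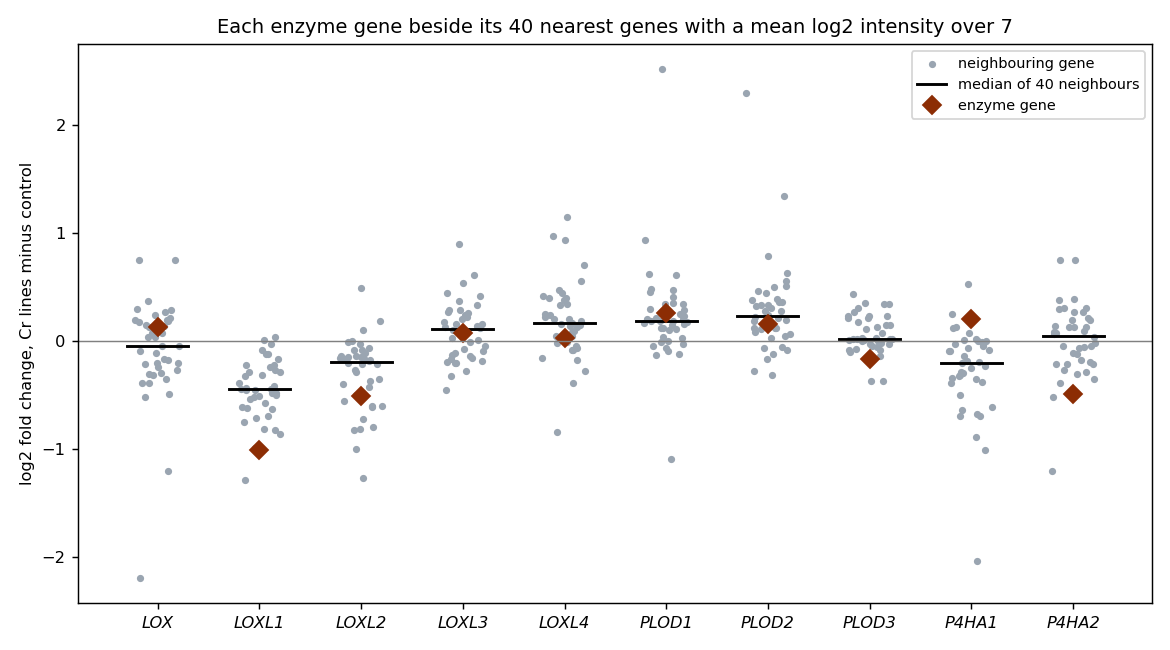
Log2 fold change in Cr lines minus control lines (vertical axis) of each enzyme gene (diamond) and of its 40 nearest genes with a mean log2 intensity over 7 (points, with a line at their median). The neighbours of LOXL1 have a median of -0.45 with LOXL1 near their lower end, whereas P4HA2 lies at -0.49 among neighbours with a median of 0.05.

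The neighbours of the other enzymes showed different medians. Those of PLOD2 on chromosome 3 had a median of 0.23, with 12 of 40 higher and 0 lower, and PLOD2 itself, at 0.16, was within their quartiles of 0.08 and 0.38. Those of PLOD1 had a median of 0.18, and PLOD1 was at 0.26. Those of PLOD3 and LOX had medians of 0.02 and -0.05. The neighbour sets of LOX and P4HA2 overlap, and each holds the other enzyme. Among all members, LOXL1 had the lowest neighbour median.

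Genes whose level followed LOXL1 most closely over the 10 arrays were VPS13B (Pearson r = 0.986), AKAP13 (0.979), SPG11 (0.975), AFG2A (0.975) and CACNB3 (0.971), out of 7782 bright genes. AKAP13 and SPG11 also lie on chromosome 15. The arrays fall into Cr lines on the one hand and control and parental cells on the other, and any gene with that split correlates with LOXL1, so these values are descriptive. SPG11 averaged 7.10 ± 0.12 in Cr lines (SD, n = 6) and 8.04 ± 0.12 in control lines (SD, n = 3).

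Other genes of the collagen pathway, with those of its cofactor supply and related enzymes, gave more lower than higher calls. Of 64 such genes measured, 12 were lower (18.8%) and 6 higher (9.38%) in Cr lines, against 5.72% and 5.33% of all clusters, with a median log2 difference of 0.03. Of the 33 bright genes among them, 7 were lower (21.2%) and 4 higher (12.1%), against 11.6% and 10.8% of all bright clusters. With the genes known to be induced by hypoxia, 75 of 78 listed genes were measured, of which 12 were lower and 11 higher. That count of higher genes fell when any control line was left out. It was 5 without control replicate 1, 5 without control replicate 2 and 3 without control replicate 3. The counts of lower genes were then 9, 12 and 9. Such a fit has fewer control lines, so a lost call alone does not show that it rested on the line left out. Among 12 genes of chain folding and 3-hydroxylation, 1 was higher and 2 were lower. P4HA3, another alpha subunit, averaged 5.71 ± 0.12 in Cr lines and 6.60 ± 0.32 in control lines (SD, n = 6 and 3, limma adjusted p = 0.00377). PPIB, a prolyl isomerase of the same compartment, fell by 0.23 (limma adjusted p = 0.0155), and TMEM38B, an ion channel of the endoplasmic reticulum, rose by 0.93 (adjusted p = 0.0108). PPIB was lost in 3 of 20 alternative settings, including without control replicate 1 (limma adjusted p = 0.0538), and TMEM38B without control replicates 1 and 3 (0.0509 and 0.0536). P4HB, the beta subunit shared by all alpha subunits, averaged 11.93 in Cr lines and 11.80 in control lines and did not pass the limma test (adjusted p = 0.510). The collagen chaperone SERPINH1 averaged 9.26 and 9.48 in the same groups (adjusted p = 0.305), and COLGALT1, a sugar transferase, 9.91 and 9.57 (adjusted p = 0.122).

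Of 8 genes of propeptide processing, 3 were lower and 1 was higher. BMP1, a protease that removes the C-terminal propeptide of collagen and also activates LOX, averaged 7.47 ± 0.14 in Cr lines and 8.74 ± 0.26 in control lines (SD, n = 6 and 3), a difference of -1.27 (limma adjusted p = 0.000873). These are values of the brighter of its 2 clusters, and the mean of both clusters differed by -0.73 and also passed the limma test. BMP1 also lies among the chromosome 8 neighbours of LOXL2, most of which had negative differences. Its relative TLL1 averaged 4.95 ± 0.07 in Cr lines, near background, and 7.01 ± 0.86 in control lines (adjusted p = 0.00530). ADAMTS3, an N-propeptidase, fell by 0.82 (limma adjusted p = 0.0179), and ADAMTS2, named after its value was seen, rose by 0.18 (adjusted p = 0.0335). Neither was bright, with mean log2 intensities over all arrays of 6.49 for ADAMTS3 and 6.12 for ADAMTS2. ADAMTS2 was lost in 11 of 20 alternative settings, among them each control line left out, Cr_small replicate 2 and Cr_large replicates 2 and 3 left out, and the constant of 16 taken off (highest limma adjusted p = 0.115). ADAMTS3 was lost by the methods' t-test once adjusted, and by leaving out control replicate 1 or 3 (limma adjusted p = 0.0718 and 0.0787).

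Of 15 substrates, 5 were lower and 1 was higher. COL4A1, a basement membrane collagen chain, averaged 7.57 ± 0.34 in Cr lines and 9.12 ± 0.25 in control lines (SD, n = 6 and 3, limma adjusted p = 0.00134), and COL8A1 averaged 5.50 ± 0.21 and 6.40 ± 0.15 in the same groups (adjusted p = 0.00329). COL12A1, a fibril-associated collagen named after its value was seen, rose by 1.08 (limma adjusted p = 0.0119). The fibrillar COL1A1 averaged 10.99 ± 0.53 in Cr lines and 11.25 ± 1.03 in control lines and did not pass (limma adjusted p = 0.817). The elastic fibre gene FBN1 fell by 1.08 (limma adjusted p = 0.0107), and TGM2, a transglutaminase that crosslinks matrix proteins by another reaction, rose by 1.52 (adjusted p = 0.0494). These were the calls among 15 scaffold and other crosslinking genes. TGM2 was lost in 9 of 20 alternative settings, among them the replicate block, each control line left out, and Cr_small replicates 1 and 3 and Cr_large replicate 2 left out (highest limma adjusted p = 0.140). FBN1 and COL12A1 were lost without control replicate 3 (limma adjusted p = 0.0535 and 0.0520), and COL12A1 also with the methods' t-test after adjustment. The elastin gene ELN averaged 6.68 in Cr lines and 6.57 in control lines (limma adjusted p = 0.323).

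**Figure D5:**
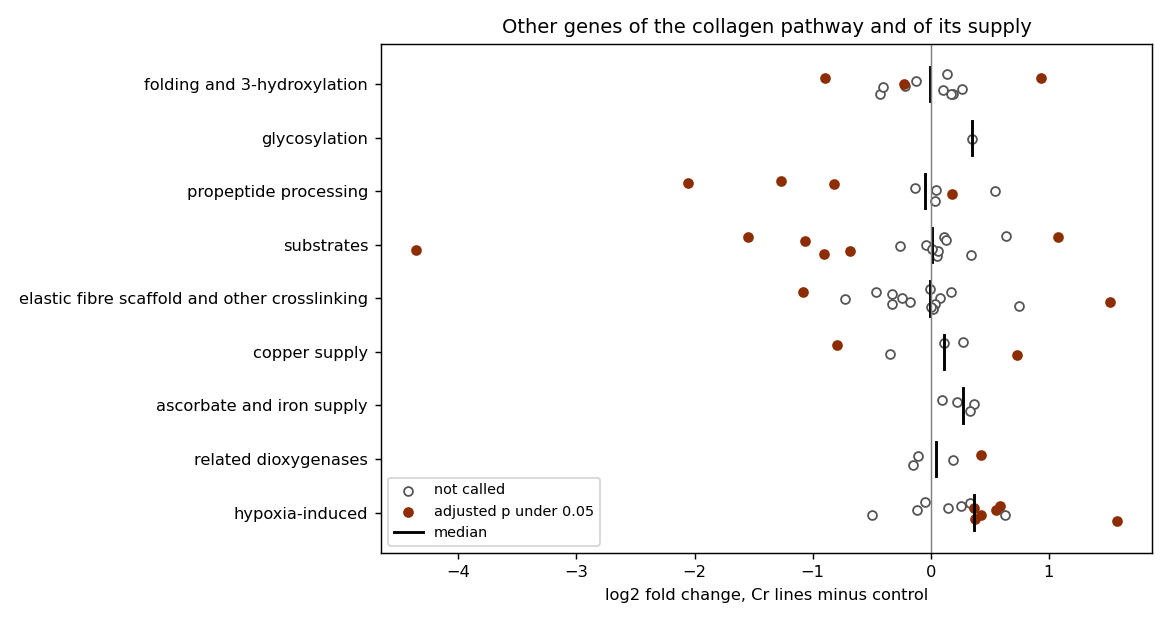
Log2 fold change in Cr lines minus control lines (horizontal axis) of the other genes of the collagen pathway by group (rows), with filled points for an adjusted p under 0.05 (limma) and a bar at each group's median. Calls lie on both sides of 0 for most groups, and the hypoxia-induced genes have 6 filled points to the right of 0 and 0 to the left.

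Supply of cofactors was followed as well. ATP7A, the copper pump that loads lysyl oxidases in the secretory pathway, averaged 7.09 ± 0.16 in Cr lines and 7.88 ± 0.12 in control lines (SD, n = 6 and 3, limma adjusted p = 0.00287). SLC31A1, the copper importer of the cell surface, averaged 10.06 ± 0.23 in Cr lines and 9.33 ± 0.20 in control lines (adjusted p = 0.0183). These were the calls among 5 copper genes, 1 in each direction, and that of SLC31A1 was lost without control replicates 2 and 3 (limma adjusted p = 0.0655 and 0.0658). Of 4 genes of ascorbate and iron supply, 0 passed the limma test after adjustment. At an unadjusted p under 0.05 there were 2 by limma and 1 by the methods' t-test. TFRC, the transferrin receptor, differed by 0.37 (limma adjusted p = 0.111).

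Among genes known to be induced by hypoxia, 6 of 13 measured were higher and 0 lower (46.2% and 0%), against 5.33% and 5.72% of all clusters. The median difference was 0.37, against 0.01 over all clusters. Of the 11 bright genes of this list 5 were higher, against 10.8% of bright clusters. ADM averaged 11.15 ± 0.38 in Cr lines and 9.57 ± 0.15 in control lines (SD, n = 6 and 3, limma adjusted p = 0.00289). NDRG1 rose by 0.55 (limma adjusted p = 0.0171), KDM3A by 0.37 (adjusted p = 0.0119) and EGLN3, an oxygen-sensing prolyl hydroxylase that also stands among the related dioxygenases, by 0.42 (adjusted p = 0.0272). VEGFA went against them at -0.50 and did not pass (limma adjusted p = 0.125), nor did PGK1 at -0.12 (0.159) and ANKRD37 at -0.05 (0.756). EGLN3 was the only call, and it was higher, among 4 related dioxygenases. It was dim, averaging 6.13 in Cr lines and 5.71 in control lines. EGLN3 was lost in 6 of 20 alternative settings, namely with the replicate block, without each control line and without Cr_large replicates 1 and 2 (highest limma adjusted p = 0.102). NDRG1 was lost without control replicate 3 (limma adjusted p = 0.0534) and with the methods' t-test after adjustment, and KDM3A without control replicate 1 (limma adjusted p = 0.0552). The count of 6 higher genes became 3 without control replicate 1 or 2, 2 without control replicate 3 and 3 without Cr_large replicate 2. With the replicate block, 5 were higher and 1 was lower. The methods' t-test gave 9 higher and 2 lower without adjustment, and 3 higher and 0 lower with it.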

How the data were processed

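Total RNA of 9 clonal lines and of the parental line was labelled and hybridised to 10 Affymetrix Human Gene ST arrays. The deposited intensities are the authors' values, made in GeneSpring by RMA16, which corrects background, normalizes by quantiles and summarizes probes into 28869 transcript clusters. They are linear, from 20.0 to 16979.5, and include a constant of 16 that compresses the folds of dim genes. Of the clusters, 19311 had 1 gene symbol, 1751 several and 7807 none here. A gene with more than 1 single-symbol cluster, such as KRT18 or P4HB, was represented by the cluster with the highest mean. Log2 values were fitted with limma 3.58.1 in R 4.3.3, with a mean for each of 4 groups (6 residual degrees of freedom) and Benjamini-Hochberg adjustment over all clusters. The number of arrays limits the precision. Summaries used Python 3.11.15 with pandas 2.3.3. Simulated data on 28869 clusters held changes in some bright clusters of the Cr lines against control and none elsewhere. Of these, 38 of 67 changes of 1.5-fold, 54 of 67 of 2-fold and 65 of 66 of 5-fold were recovered. Of the 170 calls, 13 were unchanged clusters. The data themselves gave 3190 calls, so the adjusted threshold was stricter in the simulation, and its shares do not measure recovery in the data.

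Genes were placed by RefSeq (GRCh38.p14), which also gave promoter windows for 9 of the 10 enzymes. Named genes were all 10 enzymes, up to 3 called genes with the smallest adjusted p per pathway group, and the 5 genes most like the enzyme with the smallest adjusted p. Of these, 1 gene is not reported here. The enzymes and lists were chosen with earlier results of these data known, and the study names some list genes from the same arrays. Alternatives covered the test, moderation, samples, filters, normalization, the constant, clusters per gene, a replicate block and leaving out each line.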

Additional observations from a re-analysis of the deposited data

How the results depend on the processing

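In simulated data with 6 Cr and 3 control lines, changes of 1.5-fold were often missed. The adjusted threshold was stricter there, so this does not measure what was missed in the data. LOXL3 and LOXL4 were too dim for small changes to be read. No direction of a called enzyme reversed under any of 20 settings. LOXL1 passed in all 20 (log2 difference -1.14 to -0.93), P4HA2 in 19 (-0.60 to -0.40) and LOXL2 in 10 (-0.67 to -0.43), while the other 7 enzymes passed in 0. These settings are not independent checks. For Cr lines against control, keeping only the groups compared repeats the main fit. Each enzyme has 1 cluster, so the mean of a gene's clusters leaves its values unchanged. The methods' t-test without adjustment asks only for an unadjusted p under 0.05. LOXL2 was lost with the methods' t-test after adjustment (adjusted p = 0.0656), with quantile normalization repeated (0.0575, limma), with the replicate block (0.0787, limma) and without 7 of the 9 lines in turn.

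The count of 3 enzymes lower in Cr lines ranged from 1 to 3 when each line was left out, and was 1 (LOXL1) without control replicate 3. For Cr_small, the count of 2 became 0 with the methods' t-test after adjustment, 1 (LOXL1) with only the groups compared, and 1 to 3 with a line left out. For Cr_large, the same settings gave 0, 1 (LOXL1) and 1 to 3. In both, it was 1 without control replicate 1, without control replicate 3 and without each of the group's own lines. For Cr_large against Cr_small, the methods' t-test without adjustment gave 1 (LOXL3), for which no share of all clusters was computed. The count of enzymes past 1.5-fold in control lines against parental cells ranged from 0 to 3, with 0 without control replicate 1 and 3 without control replicate 2, against 1 with all lines. The 23 calls among other pathway genes, a set of alternatives chosen after seeing the data, became 40 with the methods' t-test without adjustment and 12 to 25 with a line left out, with 14 (5 higher, 9 lower) without control replicate 1, 17 (5 higher, 12 lower) without control replicate 2 and 12 (3 higher, 9 lower) without control replicate 3.

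Residual correlations of same-numbered lines were weak, from -0.145 to 0.0984 over 9 pairs. Between control and Cr lines they were 0.0102 to 0.0984, above the -0.0819 to 0.00274 of differently numbered lines. Between Cr_small and Cr_large lines they were -0.145 to 0.0260, and differently numbered lines reached 0.270. The numbers were not taken to pair the samples in the main fit, and the replicate block was an alternative. With the replicate block, 2 enzymes (LOXL1 and P4HA2) passed for Cr lines, 2 for Cr_small and 2 for Cr_large against control, and 0 for Cr_large against Cr_small.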

Other observations

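Among genes of the collagen pathway outside the rule for named genes, all chosen after their values were seen, COL5A1 averaged 7.69 ± 0.25 in Cr lines and 8.76 ± 0.34 in control lines, and COL4A2 averaged 7.99 ± 0.34 in Cr lines and 8.68 ± 0.24 in control lines (SD, n = 6 and 3). Both were lower by limma (adjusted p = 0.00986 for COL5A1 and 0.0333 for COL4A2). COL5A1 was lost without control replicate 3 (limma adjusted p = 0.0509), and COL4A2 in 6 of 20 alternative settings, namely without control replicates 1 and 3, Cr_small replicates 1 and 2 and Cr_large replicate 2 and with the methods' t-test after adjustment (highest adjusted p = 0.128). COL1A2 averaged 6.52 ± 0.59 in Cr lines and 5.89 ± 0.12 in control lines and did not pass (limma adjusted p = 0.252). FBN2, a fibrillin like FBN1, averaged 10.67 ± 0.19 in Cr lines and 9.92 ± 0.54 in control lines and did not pass (limma adjusted p = 0.0659), and its difference of 0.75 had the opposite sign to the -1.08 of FBN1. FN1, fibronectin, averaged 12.53 ± 0.26 in Cr lines and 13.00 ± 0.16 in control lines (limma adjusted p = 0.107). PDK1 and ALDOA, of the hypoxia-induced list, rose by 0.59 and 0.37 (limma adjusted p = 0.0334 and 0.0418), and their calls were lost in 7 and 11 of 20 alternative settings (highest adjusted p = 0.111 and 0.0871). Single lines that did so were all 3 control lines, Cr_small replicates 1 and 3 and Cr_large replicate 2 for PDK1, and control replicates 2 and 3 and each of the 6 Cr lines for ALDOA.

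In the parental array, TGM2 had a log2 intensity of 6.29, against a mean of 9.03 in Cr lines and 7.51 in control lines, and ADM had 8.94, against 11.15 in Cr lines and 9.57 in control lines. ATP7A in parental cells, at 7.17, was within the range of the Cr lines (6.83 to 7.31) and below the control lines (7.75 to 7.99), and BMP1, at 7.95, lay between the Cr lines (7.21 to 7.59) and the control lines (8.47 to 8.99).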
